A study of Homo sapiens with 9 samples.

Results

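The collagen genes were taken as the rows of the deposited array table that carry exactly 1 gene symbol of the form COL, number, A, number, which gave 46 rows for 41 genes, of 36176 rows with 1 symbol (33616 genes). The table held 9 microarrays of total RNA from HCN-2, a human cell line of cortical origin that is described as neuronal. The cells had been transfected with a miR-140-3p mimic (3 arrays), a miR-126-5p mimic (3 arrays) or a scrambled control RNA (3 arrays), each as 3 μL of a 20 μM stock with the same lipid reagent, and RNA was taken 24 h later. A mimic is a short synthetic RNA that supplies the cell with a given mature microRNA. All groups are 1 cell line after transient transfection, and no group without transfection is among the arrays. Whether replicate arrays stem from separate cultures is not given in the sources used here, and the p-values may then measure technical spread only. Each value is a log2 signal, in which 1 unit is a doubling, and each group had n = 3 arrays.

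Collagens are matrix proteins built from chains that wind around each other into a triple helix. Fibrillar collagens form the cables of connective tissue, network collagens form sheets such as basement membranes, beaded filament collagens lie between the cables and the cell, fibril-associated collagens coat the cables, and membrane and multiplexin collagens sit at the cell surface or in basement membranes. Chains are hydroxylated, glycosylated and folded in the endoplasmic reticulum, exported in large carriers, trimmed outside the cell and cross-linked. In the brain, fibrillar collagens are mostly confined to the meninges and the walls of vessels, and the basement membrane of vessels holds type IV and type XVIII collagen. A mature microRNA finds its targets mainly through its seed, the bases at positions 2 to 8, and lowers the amount of messages that pair with it.

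The mature sequences that the mimics stand for are shown because they define the groups, as given by RefSeq for GRCh38.p14, 5′ to 3′, with the seed in capitals. They come from chr16:69933142-69933162 and chr9:136670616-136670636, both on the plus strand.
hsa-miR-140-3p: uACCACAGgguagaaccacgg
hsa-miR-126-5p: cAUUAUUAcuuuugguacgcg
The seeds ACCACAG and AUUAUUA differ, so the mimics fall in separate seed groups. Sites for the seeds in collagen messages were not searched.

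HCN-2 cells had signal for many collagens, and the level of a row was judged only against the other rows of the table, since values of different probes do not rank genes. Of the 41 collagen genes, 26 had a mean over the 9 arrays above the median of all rows tested (5.67), and 15 did not. Of the 26, 12 also lay above the 90th percentile of all rows (11.20): COL1A1 and COL1A2, the chains of type I collagen; COL5A1 and COL5A2, chains of type V collagen, which starts type I fibrils; COL4A1 and COL4A2, the chains of the common basement membrane network; COL8A1, a short network collagen; COL6A1 and COL6A2 of the beaded filament; COL12A1 and COL14A1, which coat fibrils; and COL18A1, a basement membrane proteoglycan whose end is released as endostatin. Single collagen values ran from 2.89 to 18.14, beside means of 3.67 to 3.89 per array over 23 background control rows. Averaged over the arrays, the single background rows, which differ in GC content, ran from 2.17 to 8.94. The 3 of lowest GC content were above the median level, and the GC content of the collagen probes was not examined. The 15 brightest collagen genes lay above all background rows, whereas 11 of the 26 above the median level, COL27A1, COL11A1, COL15A1 and COL5A3 among them, lay within the range of these rows. A further 2 rows carry the symbol of a collagen, COL3A1 or COL7A1, together with that of a microRNA and were not named or tested, and COL17A1 was not analysed here.

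**Figure D1:**
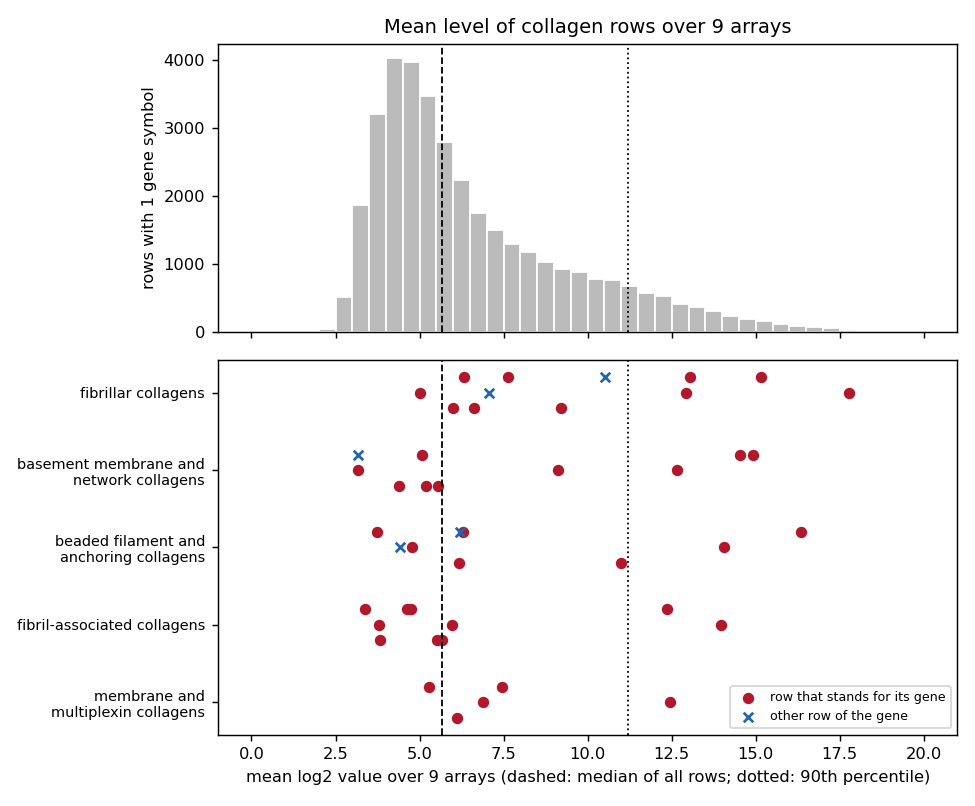
Mean log2 level over the 9 arrays. The upper panel counts all 36176 rows by level, and the lower panel shows each of the 46 collagen rows by class on the same axis, with circles for the row that stands for its gene, crosses for further rows of a gene, and vertical position within a class without meaning. Each class has rows above the 90th percentile (dotted, 11.20) as well as rows under the median (dashed, 5.67).

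The bright collagens stood beside bright markers of matrix-forming cells. Of 14 fibroblast markers 10 lay above the median of all rows, with DCN, LUM, VIM, PDGFRB and PRRX1 above the 90th percentile and THY1, FBLN1, MFAP5 and PI16 not above the median. Of 10 smooth muscle and pericyte markers 9 lay above the median. Of 16 neuron markers 5 did (NEFM, MAP2, GAD1, MAPT and SLC17A7), with NEFM above the 90th percentile. RBFOX3, SYP, SNAP25, STMN2, DCX and NEFL were among those that did not. Endothelial (4 of 10), glia (4 of 10) and microglia and leukocyte markers (5 of 9) were mostly or partly dim. CD68, a lysosomal protein of macrophages that other cells also make, was 1.09 lower after miR-126-5p than with the control (limma adjusted p = 0.0156). No other gene of these marker lists passed the adjusted p. The mean of the fibroblast markers was 10.29 to 10.49 on the miR-140-3p arrays, 10.30 to 10.33 on the miR-126-5p arrays and 10.35 to 10.43 on the control arrays, and the neuron markers had means of 5.60 to 5.82, 5.55 to 5.65 and 5.59 to 5.82 in the same order of groups. The part of the cell type in the collagen values was not tested. In bulk RNA, fewer cells of a type and less RNA per cell cannot be told apart.

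Some facts of the whole table touch every collagen value. Interferon-stimulated genes were lower with both mimics than with the scrambled control. At the adjusted p, 19 of 20 measured members passed after miR-140-3p and 20 of 20 after miR-126-5p, beside 0.238% and 0.379% of all rows. This list was chosen with earlier results of these data known. Its mean was 8.68 to 9.26, 7.80 to 9.42 and 12.17 to 13.15 on the miR-140-3p, miR-126-5p and control arrays. Its part in the collagen values was not tested. Bright rows also ran lower as a whole after miR-126-5p, by a median of -0.11 over all 3557 genes above the 90th percentile, and this median was 0.05 after quantile normalization was applied again, so collagen differences are given beside the value for all genes of like brightness. Over all rows with 1 symbol, arrays of 1 group had correlations of 0.990 to 0.994 with each other, and arrays of different groups 0.987 to 0.992.

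Differences between groups were tested with limma over all 36176 rows in 1 fit. A row was called at a Benjamini-Hochberg adjusted p under 0.05, or, as a weaker mark, at the thresholds of the study, an unadjusted p under 0.05 with a difference over 0.32 on the log2 scale. No collagen row passed the adjusted p in any comparison. The lowest adjusted p of a collagen was 0.355 for miR-140-3p against the control, 0.0753 for miR-126-5p against the control and 0.456 between the mimics, and over all rows 0.238%, 0.379% and 0% were called. At an unadjusted p under 0.05, 3, 7 and 7 collagen rows were found in these comparisons. The collagens therefore are described by their values and by the unadjusted thresholds, and none is said to have changed. The median SD within groups was 0.201 for collagens above the median level, against 0.227 for all genes above it.

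The miR-126-5p comparison held the most collagen rows at the unadjusted thresholds among those against the control: 7 of 46 (15.2%) were lower and 0 were higher, where 6.83% of all rows were lower and 3.57% higher. The 7 are single rows of COL18A1, COL27A1, COL1A1, COL4A2, COL5A1, COL6A2 and COL6A3. All lie above the median level, where the collagen share was 24.1% of 29 rows and the share of all rows 10.8%. After quantile normalization again 3 of the 7 were left (COL18A1, COL27A1 and COL1A1), beside 5% of all rows lower and 4.93% higher. A count of 3 of 46 is near that share. Above the median level, where all 3 lie, 6.62% of all rows were then lower and 6.25% higher. With arrays left out in turn the count was 4 to 8, and it was 4 without miR-126-5p replicate 1 and 4 without control replicate 3, when COL4A2, COL5A1 and COL6A3 dropped out. These 3 also missed the thresholds without miR-126-5p replicate 3, COL4A2 and COL6A3 without control replicate 1, and COL5A1 without control replicate 2. The share of all rows past these thresholds was not computed with arrays left out, so nothing is read from these counts.

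COL18A1, the multiplexin of basement membranes, had log2 values of 12.72, 12.25 and 12.64 after miR-140-3p, 11.89, 12.18 and 11.91 after miR-126-5p, and 12.89, 12.71 and 12.96 with the scrambled control. Every miR-126-5p array was below every control array and every miR-140-3p array, while the miR-140-3p arrays overlapped the controls. The miR-126-5p minus control difference was -0.86 (standard error, SE, 0.18, 95% confidence interval -1.25 to -0.48, limma adjusted p = 0.0753), which is 0.550 times the control level. It kept the unadjusted thresholds under each of 18 alternatives, at -0.95 to -0.70 with adjusted p of 0.0143 to 0.352, and passed the adjusted p under 2 of them, when only rows above the median level were tested (adjusted p = 0.0299) and when eBayes used an intensity trend with robust estimation (adjusted p = 0.0143). Many of these alternatives leave the difference itself unchanged, and COL18A1 was picked for its low p. Nothing is read from how many it passed. The miR-140-3p minus control difference was -0.32 (SE 0.18, limma adjusted p = 0.651).

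RefSeq gives COL18A1 more than 1 start. The windows from 250 bases before to 50 bases after the starts in the table are shown because this collagen had the lowest p of the family, on the plus strand of chr21:45404915-45405214 and chr21:45455272-45455571 in GRCh38.p14. Capitals mark CCAAT boxes (CCAAT) and GC boxes (GGGCGG) on either strand, counting matches that share bases separately.
COL18A1, first window: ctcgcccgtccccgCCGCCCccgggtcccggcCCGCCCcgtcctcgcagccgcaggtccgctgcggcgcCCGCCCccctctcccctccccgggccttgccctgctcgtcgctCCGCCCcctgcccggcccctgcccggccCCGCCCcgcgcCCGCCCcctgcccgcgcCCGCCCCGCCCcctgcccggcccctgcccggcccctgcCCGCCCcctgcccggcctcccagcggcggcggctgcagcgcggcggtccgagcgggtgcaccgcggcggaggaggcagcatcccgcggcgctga
COL18A1, second window: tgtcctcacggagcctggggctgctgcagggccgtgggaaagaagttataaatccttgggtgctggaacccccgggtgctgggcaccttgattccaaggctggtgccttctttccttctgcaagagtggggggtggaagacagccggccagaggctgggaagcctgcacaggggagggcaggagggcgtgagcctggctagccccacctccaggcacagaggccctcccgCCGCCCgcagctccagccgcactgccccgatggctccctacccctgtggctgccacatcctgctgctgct
The first window holds 9 GC boxes at 86.7% GC and the second holds 1 at 66.3% GC, and neither holds a CCAAT box. Which start the array row covers is not given in the sources used here. Of the 41 collagen genes 30 had a window in the table, with 42 windows in all. Of these, 54.8% held a GC box and 31.0% a CCAAT box, beside 45.0% and 34.6% of all 35116 windows of the same length, and the median GC content was 64.8% beside 58.7%. A TATA box (TATAAA) was in 14.3% beside 11.5%. The gamma-activated site (TTCNNNGAA) and the interferon-stimulated response element, sequences that interferon-activated factors bind, were in 2.38% and 0% of collagen windows, beside 7.66% and 3.57%. A match of letters is a description and not a binding site.

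Type IV collagen makes the basement membrane network. COL4A1 had 14.95, 14.81 and 14.76 after miR-140-3p, 14.79, 14.71 and 14.88 after miR-126-5p, and 14.98, 15.07 and 15.27 with the control. COL4A2 had 13.08, 12.40 and 12.79 after miR-140-3p, 12.24, 12.45 and 12.28 after miR-126-5p, and 13.01, 12.55 and 13.00 with the control. All mimic arrays were below all control arrays for COL4A1, and for COL4A2 the miR-126-5p arrays alone were. The COL4A1 differences from the control were -0.26 after miR-140-3p (limma adjusted p = 0.673) and -0.31 after miR-126-5p (limma adjusted p = 0.526), short of the unadjusted thresholds. COL4A2 was lower after miR-126-5p at the unadjusted thresholds, by -0.53 (SE 0.20, limma adjusted p = 0.394), and its difference after miR-140-3p was -0.10.

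COL4A1 and COL4A2 are read in opposite directions from starts 127 bases apart, so 226 bases of their windows are the same. The COL4A2 window, chr13:110307034-110307333 on the plus strand, is shown because it shares these bases with the COL4A1 window, marked in the same way.
COL4A2: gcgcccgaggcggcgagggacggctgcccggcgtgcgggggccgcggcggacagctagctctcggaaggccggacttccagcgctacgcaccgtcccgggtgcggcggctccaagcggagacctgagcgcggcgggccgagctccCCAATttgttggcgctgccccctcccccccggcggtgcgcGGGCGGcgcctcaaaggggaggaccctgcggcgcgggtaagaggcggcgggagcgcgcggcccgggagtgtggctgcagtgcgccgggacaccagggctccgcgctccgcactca
It holds 1 CCAAT box and 1 GC box. The COL4A1 window, not shown, holds 1 CCAAT box and 2 GC boxes. The other pairs of type IV genes are also placed head to head in RefSeq, COL4A4 and COL4A3 with starts 419 bases apart and COL4A6 and COL4A5 with starts 380 or 1416 bases apart.

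The remaining type IV chains, COL4A3 to COL4A6, were mostly dim. COL4A5 had 9.12, 8.63 and 9.12 after miR-140-3p, 8.86, 9.06 and 9.30 after miR-126-5p, and 9.40, 8.997 and 9.46 with the control. Its groups overlapped, and it was the only one of the 4 above the median level. COL4A3 had 5.87, 5.62 and 5.21 after miR-140-3p, 5.86, 5.31 and 5.30 after miR-126-5p, and 5.88, 5.22 and 5.64 with the control, and a second row of the gene lay between 2.89 and 3.34 on all arrays. COL4A4 had 4.96, 4.86 and 5.17 after miR-140-3p, 4.93, 5.18 and 5.47 after miR-126-5p, and 4.51, 5.23 and 5.35 with the control. COL4A6 had 5.41, 5.49 and 5.05 after miR-140-3p, 5.42, 4.76 and 4.77 after miR-126-5p, and 5.57, 4.81 and 5.57 with the control. All 3 dim chains overlapped between groups in every comparison. COL8A1, a network collagen of vessels and of the cornea, had 14.81, 14.46 and 14.62 after miR-140-3p, 14.44, 14.39 and 14.33 after miR-126-5p, and 14.62, 14.40 and 14.74 with the control. Its miR-126-5p arrays were below all miR-140-3p arrays but overlapped the controls, with a difference from the control of -0.20 (limma adjusted p = 0.723). Of the 9 network collagens measured, 1 (COL4A2) was lower after miR-126-5p and 0 passed the unadjusted thresholds in the other comparisons, so that 1 of 9 is near the 6.83% of all rows and 10.8% of bright rows that were lower, and after quantile normalization again COL4A2 no longer passed (-0.38).

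Among the 10 fibrillar collagens measured, 9 lay above the median level and 3 were lower after miR-126-5p at the unadjusted thresholds, beside 6.83% of all rows and 10.8% of those above the median level. COL1A1 had 15.40, 15.13 and 15.27 after miR-140-3p, 14.92, 14.82 and 14.79 after miR-126-5p, and 15.25, 15.29 and 15.63 with the control. Its miR-126-5p arrays were below all others, and the difference from the control was -0.55 (SE 0.16, limma adjusted p = 0.256). A second COL1A1 row, between 10.15 and 10.79 on all arrays, did not show this (0.10, limma adjusted p = 0.902), and with the rows of the gene averaged the difference was -0.22, short of the unadjusted thresholds. COL1A2 had 18.08, 17.82 and 18.14 after miR-140-3p, 17.54, 17.71 and 17.56 after miR-126-5p, and 17.72, 17.61 and 17.77 with the control. For this chain the miR-140-3p arrays were above all others, at 0.31 over the control (SE 0.16, limma adjusted p = 0.621), and the miR-126-5p arrays overlapped the controls (-0.10, limma adjusted p = 0.876). A second COL1A2 row at 6.53 to 7.66 overlapped in every comparison.

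COL27A1, a fibrillar collagen best known from cartilage, had 7.93, 7.68 and 7.73 after miR-140-3p, 7.15, 7.38 and 7.24 after miR-126-5p, and 7.91, 7.79 and 7.93 with the control. The miR-126-5p arrays were below all others. The difference from the control was -0.62 (SE 0.15, 95% confidence interval -0.95 to -0.28, limma adjusted p = 0.167). Like that of COL18A1 it kept the unadjusted thresholds under each of 18 alternatives. Many of these leave the difference unchanged, and the gene was picked for passing, so nothing is read from this.

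Type V collagen chains gave unlike values. COL5A1 had 13.27, 13.10 and 12.99 after miR-140-3p, 12.71, 12.83 and 12.75 after miR-126-5p, and 12.84, 13.34 and 13.43 with the control. The miR-126-5p arrays were below all others but by only a narrow step from control replicate 1, and the difference was -0.44 (SE 0.18, limma adjusted p = 0.430), or -0.28 after quantile normalization again, short of the unadjusted thresholds. COL5A2 had 12.88, 12.92 and 12.96 after miR-140-3p, 12.93, 12.89 and 12.96 after miR-126-5p, and 13.10, 12.63 and 12.97 with the control, with a miR-126-5p difference of 0.03 (95% confidence interval -0.32 to 0.38). COL5A3 had 7.19, 6.68 and 6.28 after miR-140-3p, 6.04, 6.54 and 6.69 after miR-126-5p, and 6.49, 6.80 and 6.93 with the control, and its groups overlapped.

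Type VI collagen forms beaded filaments around cells from its α1, α2 and α3 chains. COL6A1 had 16.50, 16.42 and 16.48 after miR-140-3p, 16.11, 16.13 and 16.22 after miR-126-5p, and 16.003, 16.55 and 16.61 with the control. Control replicate 1 was the lowest array of all for this gene, so the miR-126-5p arrays overlapped the controls (-0.23, limma adjusted p = 0.704). COL6A2 had 14.31, 13.996 and 14.08 after miR-140-3p, 13.76, 13.74 and 13.81 after miR-126-5p, and 14.21, 14.23 and 14.24 with the control. Here the miR-126-5p arrays were below all others, by -0.46 against the control (SE 0.15, limma adjusted p = 0.316). The 2 further rows of COL6A2, at 5.60 to 6.71 and at 4.18 to 5.03, overlapped with the control in both comparisons against it, and the mean of its rows gave -0.17, short of the unadjusted thresholds. COL6A3 had 11.38, 11.004 and 11.13 after miR-140-3p, 10.66, 10.88 and 10.47 after miR-126-5p, and 11.45, 10.86 and 11.12 with the control. Its miR-126-5p arrays overlapped the controls by 1 array, and the difference was -0.47 (SE 0.19, limma adjusted p = 0.430).

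**Figure D2:**
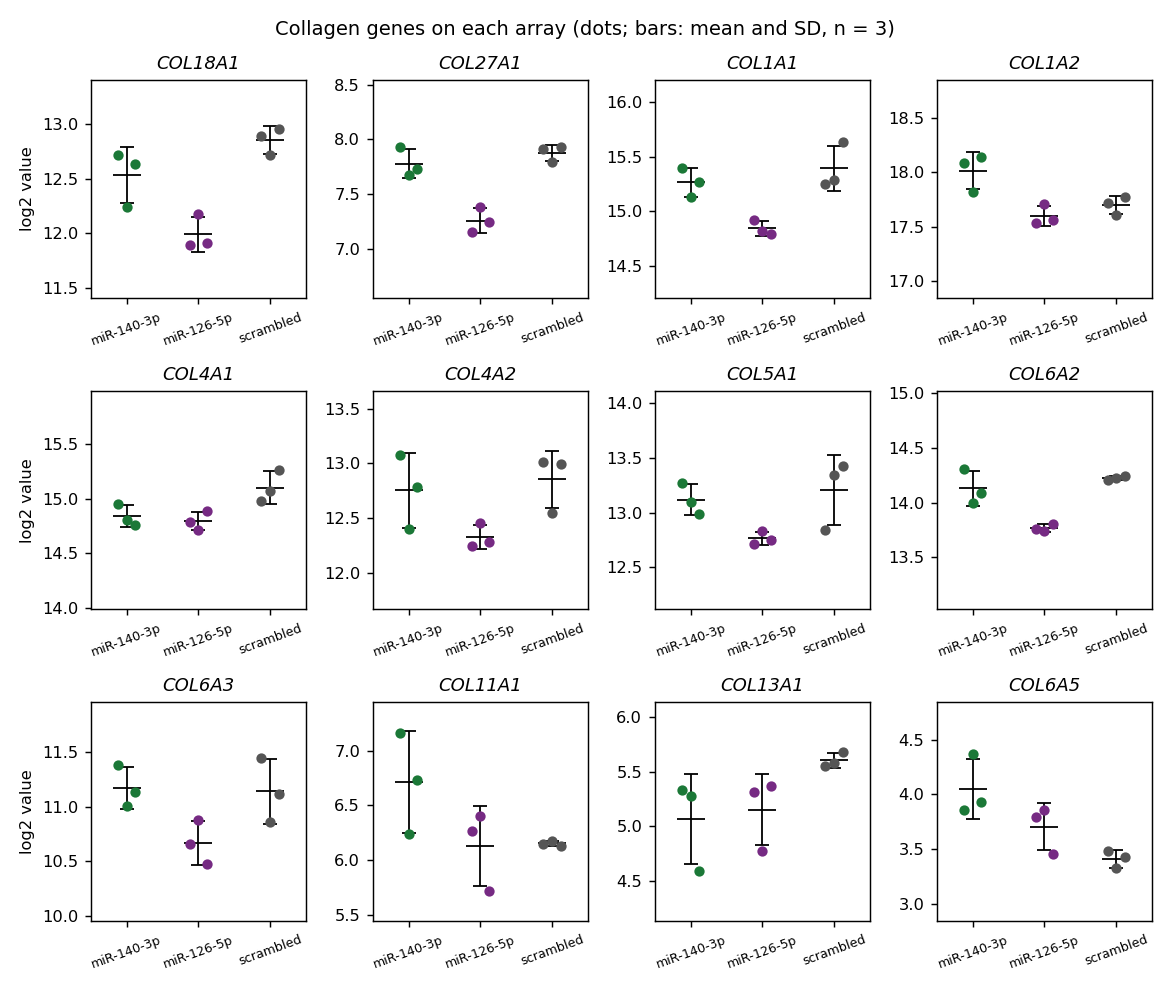
Log2 values of 12 collagen genes on each array, with dots for arrays and lines for the mean and SD of n = 3. The miR-140-3p arrays are left, the miR-126-5p arrays in the middle and the scrambled control arrays right, and all panels span the same number of log2 units. COL18A1, COL27A1, COL1A1, COL5A1 and COL6A2 have all miR-126-5p arrays under all others. They were picked by these same values. The share of all rows with this pattern was not computed, so nothing is read from it.

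Against the control, miR-140-3p gave 2 collagen rows higher (COL6A5 and COL11A1, 4.35% of 46) and 1 lower (COL13A1, 2.17%), beside 3.35% and 5.16% of all rows. These shares are near those of all rows. The higher share of all rows was 4.32% and the lower 4.45% after quantile normalization again, when the same 3 collagens were found. COL6A5, a type VI chain that can stand in for α3, had 3.86, 4.37 and 3.93 after miR-140-3p, 3.80, 3.86 and 3.46 after miR-126-5p, and 3.48, 3.32 and 3.42 with the control. The miR-140-3p arrays were above all control arrays, at a difference of 0.64 (SE 0.18, limma adjusted p = 0.355), but all 9 values lay under the median level and near the means of the background control rows. COL6A6, the related chain, had 4.81, 4.71 and 4.41 after miR-140-3p, 4.76, 5.04 and 5.09 after miR-126-5p, and 4.50, 5.00 and 4.61 with the control, with overlap throughout.

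COL11A1, a chain of type XI collagen, which starts the fibrils of cartilage, had 7.16, 6.24 and 6.73 after miR-140-3p, 6.26, 6.40 and 5.71 after miR-126-5p, and 6.15, 6.18 and 6.13 with the control. The miR-140-3p arrays were above the controls, although replicate 2 was only just so, and the difference was 0.56 (SE 0.24, limma adjusted p = 0.547). Without miR-140-3p replicate 1 it was 0.34, and it was 0.55 to 0.57 without miR-140-3p replicate 3 or any 1 control array, each short of the unadjusted thresholds. COL11A2, its partner chain, had 5.59, 5.08 and 4.63 after miR-140-3p, 5.18, 4.85 and 4.83 after miR-126-5p, and 4.84, 5.02 and 5.03 with the control, and the groups overlapped.

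COL13A1, a collagen that spans the cell membrane and is known from the neuromuscular junction, had 5.34, 5.28 and 4.59 after miR-140-3p, 5.31, 4.78 and 5.37 after miR-126-5p, and 5.55, 5.58 and 5.68 with the control. Both mimic groups lay below the controls, and the differences were -0.54 after miR-140-3p (SE 0.22, limma adjusted p = 0.544) and -0.45 after miR-126-5p (SE 0.22, limma adjusted p = 0.515). Without miR-140-3p replicate 3 the first was -0.30, and it was -0.56 to -0.50 without any 1 control array, each short of the unadjusted thresholds. With arrays left out in turn, 1 to 5 collagen rows passed the unadjusted thresholds after miR-140-3p. The count was 5 without miR-140-3p replicate 2, and 1, that of COL6A5, without miR-140-3p replicate 3 and also without control replicate 3. No share of all rows was computed with these arrays left out, so nothing is read from the counts.

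No row of the 10 fibril-associated collagens passed the unadjusted thresholds, which is near the 3.35% to 6.83% of all rows found per direction in each comparison. With arrays left out, COL21A1 passed after miR-140-3p without control replicate 2, and COL16A1 passed between the mimics without miR-140-3p replicate 2 and without miR-126-5p replicate 3. COL12A1 had 12.38, 12.21 and 12.47 after miR-140-3p, 12.44, 12.40 and 12.29 after miR-126-5p, and 12.52, 12.02 and 12.44 with the control. COL14A1 had 14.32, 13.87 and 13.81 after miR-140-3p, 14.03, 14.06 and 13.81 after miR-126-5p, and 14.14, 13.72 and 14.01 with the control. Groups overlapped for both genes, and the 95% confidence intervals of the miR-126-5p minus control difference were -0.33 to 0.43 for COL12A1 and -0.39 to 0.42 for COL14A1. Of the 10 genes of this class 4 were above the median level.

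The 17 collagen genes not given by array had no row past the unadjusted thresholds. Their differences from the control lay between -0.32 (COL28A1) and 0.44 (COL24A1) after miR-140-3p, and between -0.24 (COL16A1) and 0.37 (COL19A1) after miR-126-5p. COL2A1, the main collagen of cartilage, was above the median level at 8.85 to 9.46 after miR-140-3p, 8.90 to 9.71 after miR-126-5p and 8.78 to 9.87 with the control. COL15A1, the multiplexin related to COL18A1, differed by 0.06 after miR-140-3p and by -0.08 after miR-126-5p (95% confidence interval -0.51 to 0.36).

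Between the mimics, 7 of 46 collagen rows (15.2%) were higher after miR-140-3p than after miR-126-5p when judged by the unadjusted thresholds, and 0 were lower, beside 5.07% and 3.99% of all rows. Above the median level the collagen share was 24.1% of 29 rows and that of all rows 6.82%, with 0 collagen rows and 4.08% of all rows lower. This comparison and the one of miR-126-5p with the control use the same miR-126-5p arrays. The 7 rows were those of COL18A1 at 0.54 (SE 0.18, limma adjusted p = 0.459), COL27A1 at 0.52 (SE 0.15, adjusted p = 0.456), COL1A1 at 0.42, COL1A2 at 0.41, COL6A2 at 0.36, COL6A3 at 0.50 and COL11A1 at 0.59. The miR-140-3p and miR-126-5p arrays did not overlap for 6 of them and overlapped for COL11A1. Over the whole table, 9.12% of all rows and 12.5% of those above the median level had every miR-140-3p array above every miR-126-5p array. The 6 come from rows picked by their difference in the same comparison, so nothing is read from this count. The count of rows past the thresholds was 3 without miR-140-3p replicate 1, 4 without miR-140-3p replicate 3, 4 without miR-126-5p replicate 1, 3 without miR-126-5p replicate 3 and 10 without miR-140-3p replicate 2. The share of all rows was not computed with arrays left out, so these counts are descriptions only. COL18A1 and COL27A1 kept the thresholds under each of 18 alternatives, and the other 5 missed them with at least 1 array left out. Many alternatives leave the difference unchanged, and the 7 were picked for passing, so nothing is read from this. After quantile normalization again 4 rows were left (COL18A1, COL27A1, COL1A1 and COL11A1), beside 5.06% of all rows higher and 4.74% lower. Above the median level, 6.35% of all rows were then higher and 5.47% lower.

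Among the 26 collagen genes above the median level, 14 were below zero after miR-140-3p, 20 after miR-126-5p and 9 in the difference between the mimics, where all 17078 such genes gave 10124, 10798 and 7755. Their medians were -0.01, -0.15 and 0.19, beside -0.05, -0.09 and 0.03 for all genes, and quantile normalization again gave 0.02, -0.03 and 0.14 for the collagens, beside 0.01, 0.02 and -0.01. Over the 12 collagens above the 90th percentile the median was -0.03 after miR-140-3p, -0.27 after miR-126-5p and 0.33 between the mimics, beside -0.03, -0.11 and 0.07 for all 3557 genes there. Taken relative to all genes of that brightness, the miR-126-5p median of these 12 was -0.16, and -0.15 after quantile normalization again, and the median between the mimics was 0.27 and 0.25. These medians are descriptions with no test.

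**Figure D3:**
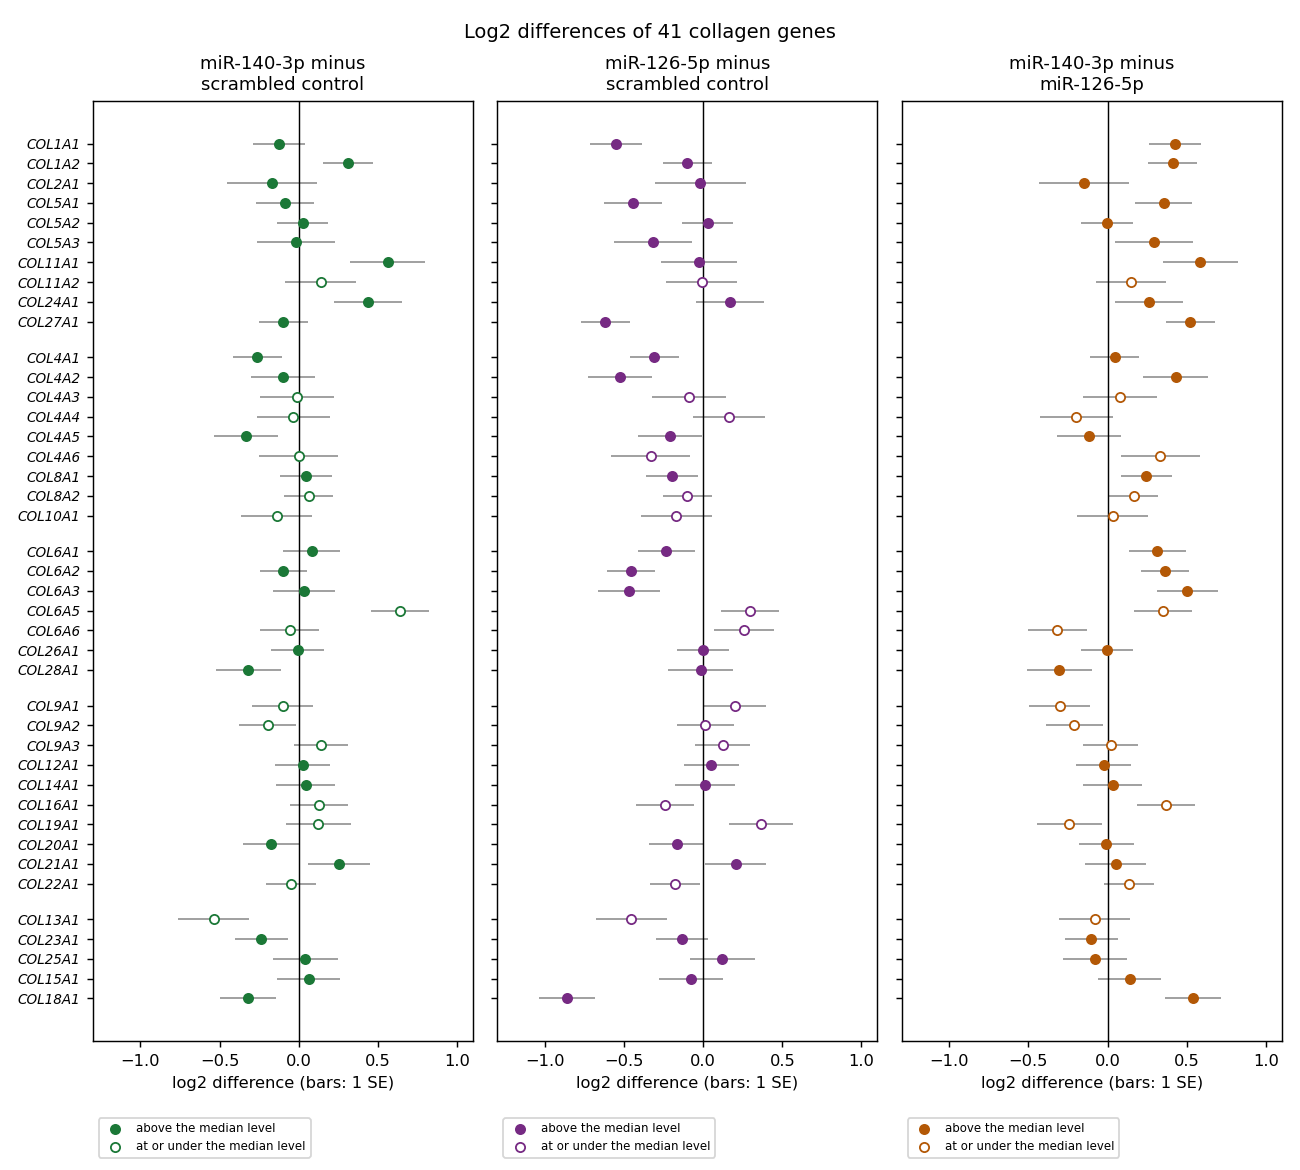
Log2 differences of the 41 collagen genes, with bars for 1 standard error, grouped by class from the fibrillar collagens at the top to the membrane and multiplexin collagens at the bottom. Filled points are genes above the median level and open points the others. In the middle panel COL18A1 (-0.86) and COL27A1 (-0.62) lie farthest to the left. Of the fibril-associated class, COL12A1 and COL14A1 lie near zero in all panels. Others of the class lie farther out, such as COL19A1 (0.37) in the middle panel and COL16A1 (0.37) and COL9A1 (-0.30) in the right panel.

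The genes that make collagen ready for export were taken as a list of 21 measured genes, all above the median level. After miR-126-5p 5 of 21 were lower at the unadjusted thresholds and 0 higher, beside 10.8% and 3.17% of all rows above the median level. After miR-140-3p 1 was lower and 1 higher, beside 6.58% and 2.4% of those rows, which is near the share of all rows. SERPINH1, the collagen chaperone HSP47, had 11.46, 10.69 and 11.08 after miR-140-3p, 10.36, 10.50 and 10.73 after miR-126-5p, and 11.43, 11.39 and 11.81 with the control. Its miR-126-5p arrays were below all control arrays, at -1.01 (SE 0.21, limma adjusted p = 0.0840), and after miR-140-3p the difference was -0.47 (limma adjusted p = 0.582). COLGALT1, which adds galactose to hydroxylysine, differed by -0.49 after miR-126-5p (limma adjusted p = 0.310). The others lower at the unadjusted thresholds were PLOD1 and PLOD3, lysyl hydroxylases, and MIA3, which loads procollagen into carriers, named after their values were seen. P3H2, a prolyl 3-hydroxylase, was higher after miR-140-3p by 0.61 (limma adjusted p = 0.548). After quantile normalization again the counts were 3 lower and 0 higher after miR-126-5p, beside 6.62% and 6.25% of rows above the median level, and the median of the list was 0.04 in place of -0.12. After miR-140-3p the counts were then 1 lower and 3 higher (P3H2, P3H4 and TMEM38B), beside 4.55% and 4.33%.

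Trimming and cross-linking enzymes numbered 14 measured, 10 above the median level. After miR-126-5p 5 were lower at the unadjusted thresholds and 0 higher, beside 6.83% lower over all rows and 10.8% above the median level. After quantile normalization again 4 were lower, beside 5% of all rows and 6.62% of those above the median level. BMP1, the protease that removes the C-terminal propeptide, had 10.03, 9.35 and 9.87 after miR-140-3p, 8.81, 8.65 and 9.03 after miR-126-5p, and 9.53, 10.17 and 10.64 with the control. The miR-126-5p arrays were below all others, and the difference was -1.29 (SE 0.27, limma adjusted p = 0.0794). ADAMTS2, which removes the N-terminal propeptide, had 7.40, 7.03 and 7.33 after miR-140-3p, 6.97, 6.94 and 6.92 after miR-126-5p, and 7.38, 7.44 and 7.81 with the control, a difference of -0.60 after miR-126-5p (limma adjusted p = 0.235). After miR-140-3p 1 of 14 was lower, TLL1, a relative of BMP1, by -0.56 (limma adjusted p = 0.547), and PCOLCE, which speeds BMP1, gave 0.41 (limma adjusted p = 0.614). A count of 1 of 14 is near the 5.16% of all rows that were lower, and after quantile normalization again TLL1 no longer passed and PCOLCE was 1 higher. Between the mimics BMP1 was 0.92 higher and PCOLCE 0.68 higher after miR-140-3p (limma adjusted p = 0.456 for both).

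Among 21 fibril organizers, 4 were lower and 1 higher after miR-126-5p, and 1 lower and 0 higher after miR-140-3p, at the unadjusted thresholds, beside 6.83% lower and 3.57% higher and 5.16% lower and 3.35% higher over all rows. THBS2, a matricellular thrombospondin, differed by -0.75 after miR-126-5p (limma adjusted p = 0.170), and PRELP, a leucine-rich proteoglycan that binds collagen, by -0.70 (adjusted p = 0.239). DPT, dermatopontin, differed by -0.43 after miR-140-3p (limma adjusted p = 0.544). Of the 21 organizers 17 were above the median level, and 2 of these were lower after miR-126-5p, near the 10.8% of all rows there. After quantile normalization again 4 organizers were lower after miR-126-5p, beside 5% of all rows and 6.62% of those above the median level. Then 2, EFEMP2 and LUM, were higher, beside 4.93% of all rows, and 0 passed after miR-140-3p. Among 17 genes of degradation and uptake, 3 were lower and 1 higher after miR-126-5p, beside 6.83% and 3.57% of all rows. Of the 17, 13 lay above the median level, as did every gene past the thresholds. There 10.8% of all rows were lower and 3.17% higher after miR-126-5p. For miR-140-3p 0 of the 17 were lower and 2 higher, beside 5.16% and 3.35% of all rows, or 6.58% and 2.4% above the median level. FAP, a surface protease that also marks activated fibroblasts, was higher with both, by 0.47 after miR-140-3p (limma adjusted p = 0.580) and 0.68 after miR-126-5p (limma adjusted p = 0.284), TIMP4 was 0.42 higher after miR-140-3p (limma adjusted p = 0.547), and TIMP1, an inhibitor of matrix metalloproteinases, differed by -0.46 after miR-126-5p (limma adjusted p = 0.388). When quantile normalization was applied again, 0 of these 17 were lower and 1, FAP, was higher after miR-126-5p. Above the median level 6.62% of all rows were then lower and 6.25% higher. Both comparisons use the same control arrays.

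Of 11 collagen receptors measured, 2 were lower after miR-126-5p, the collagen-binding kinase DDR2 at -0.45 (limma adjusted p = 0.367) and the integrin chain ITGA10 at -0.57 (limma adjusted p = 0.441), and 1 after miR-140-3p, the integrin chain ITGA2 at -0.52 (limma adjusted p = 0.545), with 0 higher. These counts stand beside 6.83% and 5.16% of all rows lower, or 10.8% and 6.58% above the median level, and nothing is read from them. Of the receptors, 0 were lower after miR-126-5p after quantile normalization again. Of 22 transcription factors with known roles at collagen genes, 4 were lower after miR-126-5p and 1 was higher after miR-140-3p. Of the 22, 19 were above the median level, where 10.8% of all rows were lower after miR-126-5p and 2.4% higher after miR-140-3p, and 1 of 22 is near that share. KLF4 differed by -0.81 after miR-126-5p (SE 0.18, limma adjusted p = 0.0958), SP1, which binds GC boxes, by -0.47 (limma adjusted p = 0.276), and RUNX1 by 0.56 after miR-140-3p (limma adjusted p = 0.532). After quantile normalization again KLF4 alone was left among those lower after miR-126-5p. No gene of these 6 lists passed the adjusted p in any comparison.

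**Figure D4:**
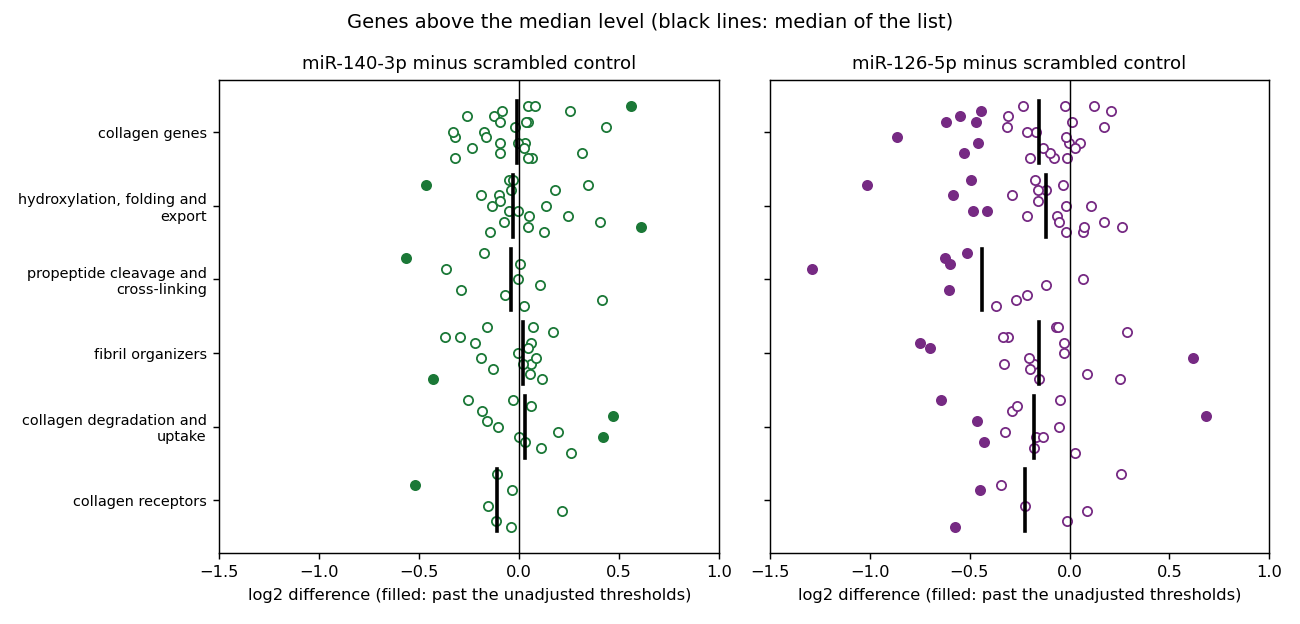
Log2 differences from the scrambled control for genes above the median level, in the collagens and in 5 lists of genes that process, organize, degrade or bind collagen, after miR-140-3p left and miR-126-5p right. Each circle is 1 gene, filled where it passed the unadjusted thresholds, black lines are list medians, and vertical position within a list has no meaning. The filled points lie mainly left of zero after miR-126-5p, with BMP1 (-1.29) and SERPINH1 (-1.01) farthest, and EFEMP2 and FAP lie right of zero.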

How the data were processed

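The values are log2 signals in 1 table, as the authors deposited them. RMA, Affymetrix Expression Console and Partek stand in the submitters' processing notes, without versions. RMA corrects background, normalizes arrays by quantiles and summarizes probes, which evens out a change shared by most genes. The study's methods name Clariom S chips, the labels Clariom D, and this was not settled. Gene symbols came from the platform annotation, and all 41 collagen symbols matched RefSeq by Entrez identifier. The groups were compared two-sided by lmFit and eBayes of limma 3.58.1 (R 4.3.3), with 9 arrays in 1 fit, no covariates and Benjamini-Hochberg adjustment over 36176 rows. The step was tested on simulated data. For a gene with several rows, the row with the highest mean stood for it. The collagens, the lists and the tests were chosen with earlier results of these data known. Collagens were given by array if past a threshold, above the 90th percentile, or partner chains of those past a threshold. List genes were named if among the 2 lowest p of a list, or as stated. Alternatives were another normalization or centring, other rows, another moderation of the variance, fits of 2 groups, a replicate block, averaged rows, and each array left out. No count depth or detection call is given, so the number of arrays limits the precision. Sequences are from RefSeq, GRCh38.p14.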

Additional observations from a re-analysis of the deposited data

How the results depend on the processing

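Of 304 checks of the 17 collagen differences past the unadjusted thresholds, 249 kept them and 55 did not, with 0 reversed. Many of these checks, such as other rows tested or another moderation of the variance, leave the difference itself unchanged and cannot reverse it. The 17 were also picked for passing the thresholds, so nothing is read from the count that kept them. Among all 41 collagen genes, quantile normalization again turned the sign of 3 differences after miR-140-3p, 3 after miR-126-5p (COL1A2, COL2A1 and COL15A1) and 4 from mimic to mimic, none past the thresholds and none over 0.10 in size before it. Rows called at the adjusted p over the whole table were 86 after miR-140-3p and 137 after miR-126-5p in limma. They became 55 for miR-140-3p when every row was tested, 226 and 214 for miR-126-5p with only rows above the median level and with an intensity trend and robust estimation, and 0 in both comparisons without moderation of the variance. For the collagens after miR-126-5p the count of 0 became 1 (COL18A1) with only rows above the median level and 1 with the trend and robust estimation.

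At the unadjusted thresholds, the 3 collagen rows after miR-140-3p became 1 (COL11A1) with only rows above the median level and 1 (COL6A5) without moderation, the 7 after miR-126-5p became 3 after quantile normalization again, and the 7 between the mimics became 4 after it and 4 with the rows of a gene averaged. The share of lower rows among all rows called was 60.6% after miR-140-3p, 65.6% after miR-126-5p and 44.1% from mimic to mimic, against 50.8%, 50.4% and 48.3% after quantile normalization again, which pulls it toward even by construction. The collagen median after miR-126-5p was -0.15 and became -0.034 after quantile normalization again, and that between the mimics was 0.19 and became 0.10 with averaged rows. Where no construction is named, the cause was not tested.

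With single arrays left out, the collagen rows at the unadjusted thresholds numbered 1 to 5 after miR-140-3p, 4 to 8 after miR-126-5p and 3 to 10 from mimic to mimic, with 0 at the adjusted p in each comparison. The share of all rows at the unadjusted thresholds was not computed with arrays left out, so nothing is read from these ranges. The rows of the table called at the adjusted p numbered 46 to 124, 80 to 304 and 0. The collagen medians ran from -0.13 to 0.0088, from -0.19 to -0.12 and from 0.065 to 0.25, with -0.13 and 0.065 both without miR-140-3p replicate 1.

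The groups share replicate numbers, and the deviations of samples of 1 number from their group means had correlations of -0.06 to 0.11, over 0.1 in 2 of 9 pairs. With 3 arrays per group, these values cannot exclude that arrays of 1 number were handled together. With the replicate block the collagen rows at the unadjusted thresholds were 3, 7 and 7, and the rows of the table at the adjusted p were 77, 121 and 0. The share of all rows at the unadjusted thresholds was not computed with the block. Signal over background may limit the 26 collagen genes that were not above the highest background row (8.94). These are the 15 at or under the median level and 11 over it, where a difference may be hidden. That background row is the one of lowest GC content, and the GC content of the collagen probes was not examined.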
